A study of Mus musculus with 2 samples.

Results

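Glycolysis enzymes and hypoxia-induced genes were followed as a set of 35 genes, taken by symbol from a list out of the 31053 genes in the count tables. The list was chosen with earlier results of these data known. Of these, 20 cover glucose breakdown from uptake to lactate release, and 15 are other genes known to be induced by low oxygen. The cells came from the MM13 mouse embryonic stem cell line at day 9 of differentiation towards spinal sensory interneurons. The RA+BMP4 condition added bone morphogenetic protein 4 (BMP4), a signal of the dorsal spinal cord, to RA, the usual abbreviation of retinoic acid, and the RA condition was the same without BMP4. Each condition was 1 droplet library from 1 cell line, dissociated with trypsin and cleared of dead cells. There was no replicate error, so no difference between conditions was tested, and every interval below is an exact 95% interval for counting error within the libraries.

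Glycolysis splits glucose into pyruvate in the cytosol, and lactate dehydrogenase turns pyruvate into lactate while restoring the cofactor that keeps the pathway running. When oxygen is scarce, prolyl hydroxylases no longer mark the alpha subunits of hypoxia-inducible factor (HIF) for destruction, and HIF binds DNA at a short core that reads ACGTG or GCGTG. Its known targets include many glycolytic enzymes and genes of mitochondrial turnover, blood vessel growth and collagen folding, and pluripotent cells are known for high glycolysis.

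The 250 bases before the start of Slc16a3, Ldha, Pgk1, Bnip3 and Ankrd37 are shown as examples. The first 4 were higher in RA+BMP4 in 8 of 10 classes, and Ankrd37 in both classes where it could be called. Ldhb is shown beside them as a gene called in no class. Tpi1 and Ddit4 were also higher in 8 of 10 classes, and Pdk1 in 8 of 9, but are not shown. Tpi1 held neither core, Ddit4 held 1 ACGTG and 1 GCGTG, and Pdk1 held no ACGTG. The genes shown are examples, and a tie between the core and the calls was not tested. Sequences are from RefSeq on GRCm38.p6, and capitals mark each ACGTG or GCGTG on either strand, so that the other strand reads CACGT or CACGC.
Slc16a3: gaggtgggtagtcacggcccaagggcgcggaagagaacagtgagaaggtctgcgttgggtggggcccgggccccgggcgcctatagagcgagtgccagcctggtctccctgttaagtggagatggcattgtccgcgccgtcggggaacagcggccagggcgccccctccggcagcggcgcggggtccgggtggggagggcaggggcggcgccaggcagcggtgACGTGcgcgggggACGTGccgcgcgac
Ldha: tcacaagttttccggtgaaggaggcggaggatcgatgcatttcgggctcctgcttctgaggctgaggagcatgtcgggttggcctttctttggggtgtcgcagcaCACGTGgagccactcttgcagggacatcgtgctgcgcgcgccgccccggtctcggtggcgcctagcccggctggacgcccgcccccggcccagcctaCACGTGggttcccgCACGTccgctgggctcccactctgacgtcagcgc
Pgk1: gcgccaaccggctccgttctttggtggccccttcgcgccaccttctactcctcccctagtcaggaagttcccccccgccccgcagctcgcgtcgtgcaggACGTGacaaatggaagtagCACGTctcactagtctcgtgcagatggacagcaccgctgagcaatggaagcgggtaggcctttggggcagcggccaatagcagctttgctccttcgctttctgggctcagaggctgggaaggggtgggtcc
Bnip3: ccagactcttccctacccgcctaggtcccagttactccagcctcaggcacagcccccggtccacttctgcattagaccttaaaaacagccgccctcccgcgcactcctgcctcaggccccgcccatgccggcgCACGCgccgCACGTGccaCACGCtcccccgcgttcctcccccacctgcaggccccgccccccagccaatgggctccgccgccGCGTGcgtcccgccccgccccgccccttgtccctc
Ankrd37: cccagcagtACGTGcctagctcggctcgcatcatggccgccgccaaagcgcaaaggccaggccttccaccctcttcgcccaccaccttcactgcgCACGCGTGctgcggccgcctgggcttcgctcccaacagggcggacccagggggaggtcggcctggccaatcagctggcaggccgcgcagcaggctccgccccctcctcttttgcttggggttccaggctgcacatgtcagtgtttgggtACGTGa
Ldhb: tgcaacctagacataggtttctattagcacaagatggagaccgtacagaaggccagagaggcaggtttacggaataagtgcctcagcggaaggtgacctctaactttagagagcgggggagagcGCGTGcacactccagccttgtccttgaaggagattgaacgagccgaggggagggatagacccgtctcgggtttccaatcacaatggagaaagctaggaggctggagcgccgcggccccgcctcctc
They lie at chr11:120948817-120949066 (plus strand, Slc16a3), chr7:46845554-46845803 (plus strand, Ldha), chrX:106186850-106187099 (plus strand, Pgk1), chr7:138909507-138909756 (minus strand, Bnip3), chr8:45999851-46000100 (minus strand, Ankrd37) and chr6:142507958-142508207 (minus strand, Ldhb). Ldha has a second RefSeq start, before which 1 GCGTG and no ACGTG was found. A CACGTG holds ACGTG once on each strand, and both were counted, which gave 5 ACGTG for Ldha and 2 each for Slc16a3, Pgk1, Bnip3 and Ankrd37, while Ldhb held 1 GCGTG and no ACGTG.

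RefSeq promoters were matched for 32 of the 35 members, without Slc2a3, Ero1l and Ndrg1. At least 1 promoter held ACGTG in 9 of 19 glycolytic genes (47.4%) and 8 of 13 hypoxia-induced genes (61.5%), beside 18.5% of all 27025 genes in the table. With GCGTG counted too, the shares were 84.2%, 92.3% and 41.5%. Some genes have several promoters, and counted per promoter the shares were lower. ACGTG was then in 35.7% of 28 glycolytic and 47.1% of 17 hypoxia-induced promoters, beside 16.6% of all 32851. With GCGTG counted too, these were 78.6%, 70.6% and 38.6%. Whether the core goes with the values below was not tested, and single members differed. Slc16a1 and Pfkm, called in no class, held ACGTG, though Slc16a1 could be called in only 2 classes. Tpi1, higher in 8 of 10 classes, held neither.

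After filtering, 8352 RA+BMP4 cells and 5900 RA cells were kept, with median depths of 10465 and 14196 unique molecular identifiers (UMIs, each standing for 1 captured transcript). Levels are CPM, the UMIs of a gene scaled to a common total per library or class, and 3' counting takes 1 end per transcript, so they were not divided by length. Clusters were formed without the 35 genes and named here from marker genes, which gave 10 classes with at least 50 cells in each library. In RA+BMP4 and RA they held 167 and 321 pluripotent-like, 487 and 1060 progenitor-like, 2794 and 993 roof plate-like, 363 and 303 newborn neuron-like, 1776 and 176 dI1-like, 639 and 138 dI2-like, 293 and 707 dI4/dILA-like, 180 and 1155 dI5/dILB-like, 174 and 400 pan-neuronal-like, and 921 and 434 mesenchyme-like cells. The 6 neuronal classes together are called neuron-like. Their shares differed between the libraries, so ratios over pooled neuron-like cells also carry the mix of classes. Roof plate-like clusters 3, 9 and 15 and the pan-neuronal-like cluster had no marker of their name among their 10 leading genes. Some classes were filled from different clusters: cluster 0 held 1731 of the RA+BMP4 roof plate-like cells and cluster 3 held 529 of the RA ones, cluster 18 held 221 of the RA+BMP4 progenitor-like cells and cluster 6 held 549 of the RA ones, and cluster 4 held 807 of the RA+BMP4 dI1-like cells and cluster 12 held 106 of the RA ones. The libraries shared 43 cell barcodes, 21 of them among kept cells.

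Summed over whole libraries, both group sums differed little between conditions, but the hypoxia-induced sum was dominated by 1 gene, Mif. The glycolytic genes summed to 5915 CPM in RA+BMP4 and 5377 CPM in RA, a ratio of 1.10, and the hypoxia-induced genes to 2264 CPM in RA+BMP4 and 1893 CPM in RA, a ratio of 1.195 (1.188 to 1.203). Mif alone had 1217 CPM in RA+BMP4 and 1161 CPM in RA, a ratio of 1.05, so the ratio of that sum does not stand for its other genes. The median log2 ratio was 0.21 over the glycolytic and 0.56 over the hypoxia-induced genes, beside 0.07 over all genes. A gene was called higher or lower when it had at least 20 CPM in 1 library and differed at least 1.5-fold. By this rule 7 of 29 members were higher, namely Slc16a3, Tpi1, Pdk1, Bnip3, Egln1, P4ha1 and Ddit4, where 3.13% of all genes were. Slc2a3 was lower, where 1.73% of all genes were.

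The cell mix differed between the libraries, and pluripotent-like cells held 11.8% of the glycolytic UMIs in RA+BMP4 and 35.01% in RA. At a fixed mix of the 10 classes the glycolytic genes summed to 6142 CPM in RA+BMP4 and 4272 CPM in RA, a ratio of 1.44. The hypoxia-induced genes summed to 2424 CPM in RA+BMP4 and 1636 CPM in RA, a ratio of 1.48.

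Pluripotent-like cells had the highest glycolytic level of the 10 classes in both libraries, 10639 CPM in RA+BMP4 and 11346 CPM in RA. Progenitor-like cells had 9927 CPM in RA+BMP4 and 5622 CPM in RA, and roof plate-like cells 6251 CPM and 4672 CPM. By cluster the RA+BMP4 order was less clear. Progenitor-like clusters 16 and 6 had 12115 CPM and 10680 CPM there, above the pluripotent-like level, and cluster 18 had 8357 CPM. Neuron-like cells had 4894 CPM in RA+BMP4 and 3237 CPM in RA. The pluripotent-like level was 2.17 times the neuron-like level in RA+BMP4 and 3.50 times in RA. For the hypoxia-induced sum these ratios were 1.29 and 1.94. That sum is dominated by Mif, a secreted immune factor, which alone had 1217 CPM in RA+BMP4 and 1161 CPM in RA, and without Mif the ratios were 1.07 and 1.70. Progenitor-like cells had the highest hypoxia-induced level of the 10 classes in RA+BMP4, 3598 CPM, and pluripotent-like cells had it in RA, 2927 CPM. The 117 neural crest and Schwann-like cells of RA+BMP4, matched by 1 cell in RA, had 4713 CPM of glycolytic and 2103 CPM of hypoxia-induced transcripts.

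**Figure D1:**
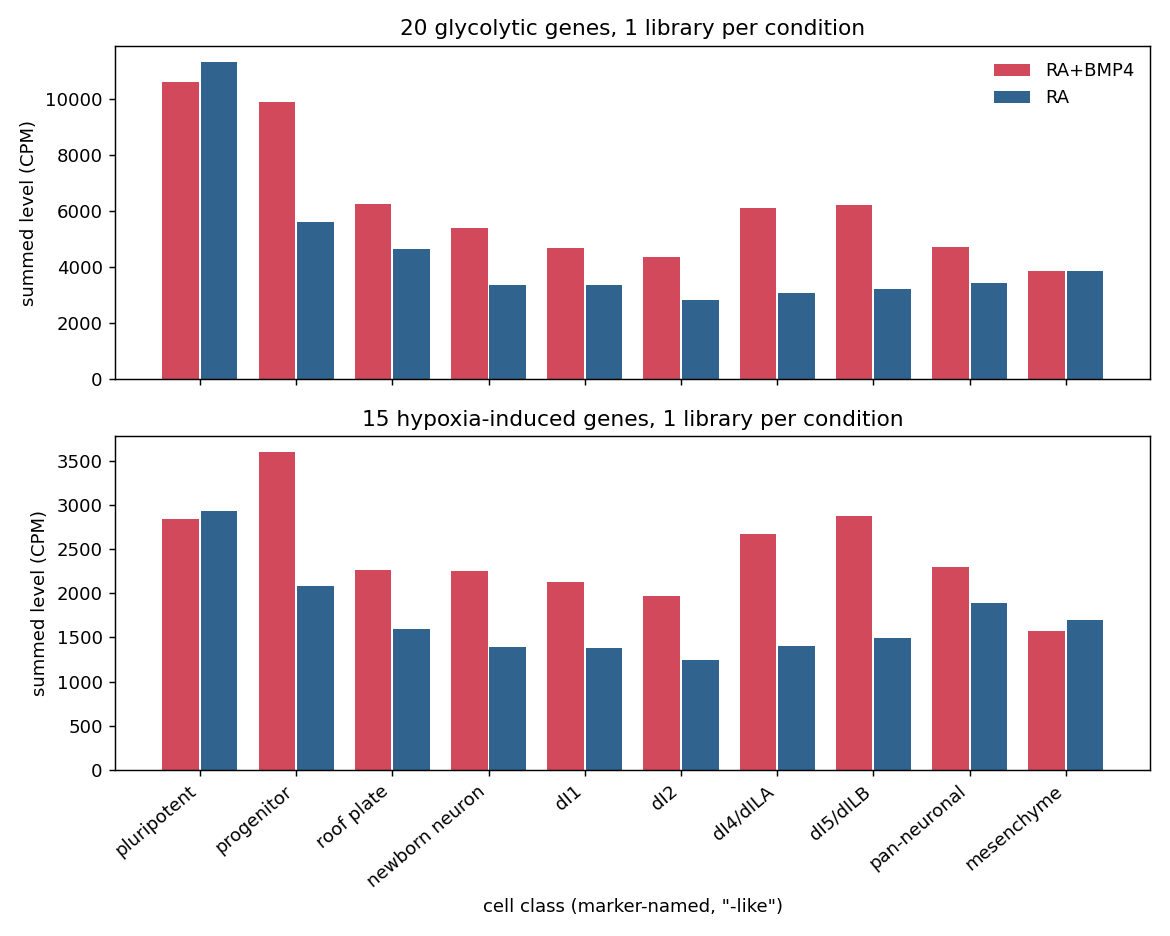
Summed level in CPM of the glycolytic and of the hypoxia-induced genes in 10 cell classes, RA+BMP4 left of RA, 1 library each and so without error bars. In progenitor-like cells the glycolytic sum is 9927 CPM in RA+BMP4 and 5622 CPM in RA, while in mesenchyme-like cells it is 3878 CPM and 3880 CPM.

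Within classes both sums were higher in RA+BMP4 in 8 of 10. In dI4/dILA-like cells, named for inhibitory interneurons of the dorsal horn, the ratio was 1.99 (1.95 to 2.03) for the glycolytic sum and 1.91 (1.85 to 1.97) for the hypoxia-induced sum. It was 1.92 for both sums in dI5/dILB-like cells, named for excitatory ones, with intervals that overlap those of dI4/dILA-like cells, and 1.77 and 1.73 in progenitor-like cells. Newborn neuron-like cells had 1.60 and 1.62, dI2-like cells 1.55 and 1.59, dI1-like cells 1.39 and 1.54, and pan-neuronal-like cells 1.38 and 1.21. Within dI1-like clusters the ratios were larger, 1.53 and 1.61 in cluster 10 and 1.47 and 1.62 in cluster 12. Cluster 4, with 14 RA cells, had 1.55 and 1.82. Progenitor-like clusters had 1.93 and 1.90 in cluster 6, 2.02 and 2.06 in cluster 16, and 1.56 and 1.55 in cluster 18. Roof plate-like cells had 1.34 and 1.42, but less within clusters: 1.26 and 1.29 in cluster 0, 1.23 and 1.29 in clusters 9 and 15 together, and 1.05 and 1.13 in cluster 3. The other 2 classes did not follow. Pluripotent-like cells had 0.938 (0.930 to 0.946) and 0.969 (0.953 to 0.985), and mesenchyme-like cells 0.999 (0.987 to 1.01) and 0.930 (0.913 to 0.947). Each hypoxia-induced sum includes Mif, its most abundant gene over the libraries, so the median over its genes is given too. That median log2 ratio was 0.59 to 1.38 in the 8 classes with higher sums. It was 0.04 in mesenchyme-like and -0.01 in pluripotent-like cells, beside 0.04 and 0.02 over all genes.

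The number of members called followed the same division of classes. The members were not chosen blind to these data, so the shares of all genes beside them give scale and are no test. In progenitor-like cells 14 of 19 glycolytic and 9 of 11 hypoxia-induced genes were higher, where 3.6% of all genes were. The counts were 14 of 17 and 11 of 12 in dI4/dILA-like cells (4.68% of all genes) and 13 of 17 and 10 of 11 in dI5/dILB-like cells (4.91%). They were 10 of 15 and 9 of 11 in newborn neuron-like cells (5.62%), 11 of 16 and 8 of 10 in dI2-like cells (5.49%), 8 of 16 and 6 of 11 in pan-neuronal-like cells (5.5%), and 8 of 16 and 6 of 10 in roof plate-like cells (6.44%). In dI1-like cells 9 of 17 and 8 of 11 were higher, but there 15.6% of all genes were. Mesenchyme-like cells had 1 of 16, Slc2a3, and 0 of 10 (2.49%), and pluripotent-like cells 0 of 17 and 0 of 13 (1.5%). The 1 member lower in any of the 10 classes was Ndrg1 in pluripotent-like cells, where 0.816% of all genes were lower. The share of all genes lower was 3.46% in roof plate-like, 1.82% in newborn neuron-like, 4.66% in dI1-like, 1.28% in dI2-like, 1.76% in dI4/dILA-like, 1.65% in dI5/dILB-like, 1.98% in pan-neuronal-like, 2.72% in mesenchyme-like and 2.23% in progenitor-like cells. Within roof plate-like cells the counts of glycolytic and hypoxia-induced genes higher were 5 of 17 and 7 of 11 in cluster 0 (6.77% of all genes), 5 of 14 and 6 of 10 in clusters 9 and 15 (4.09%), and 1 of 15 and 1 of 10 in cluster 3 (1.68%). Over neuron-like cells pooled, 12 of 17 glycolytic genes were higher with a median log2 ratio of 0.80, and 8 of 11 hypoxia-induced genes with a median of 1.11, beside 3.92% and a median of 0.06 over all genes.

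**Figure D2:**
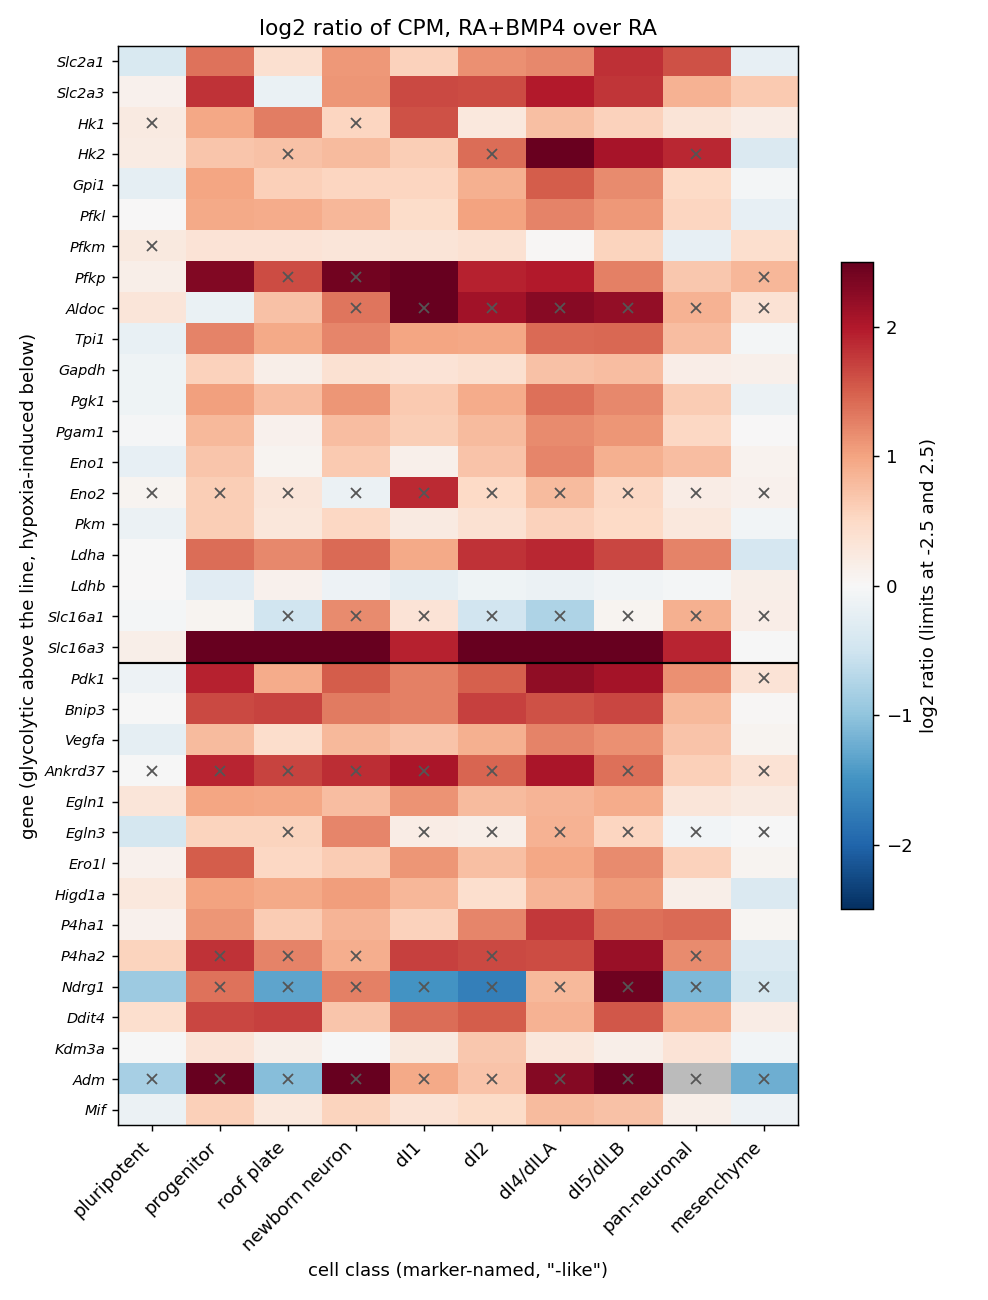
Log2 ratio of CPM, RA+BMP4 over RA, of the 35 genes (rows, in the order of their roles) in 10 cell classes (columns); x marks a gene under 20 CPM in both libraries, and grey a gene with no ratio. Colours stop at 2.5 in either direction; Slc16a3 has the largest called value, 3.66 in dI2-like cells, and Ldhb stays between -0.29 and 0.14.

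Glucose enters through Slc2a1 and Slc2a3, glucose carriers of which Slc2a3 is the high-affinity form of neurons. Slc2a3 had 75.4 CPM in RA+BMP4 and 115 CPM in RA over the whole libraries, yet was higher in RA+BMP4 in 8 of 10 classes. Pluripotent-like cells, at 593 CPM in RA+BMP4 and 549 CPM in RA, held 51.7% of its UMIs in RA+BMP4 and 79.5% in RA. In neuron-like cells Slc2a3 had 36.3 CPM in RA+BMP4 and 15.3 CPM in RA, a ratio of 2.38 (2.15 to 2.63). Without pluripotent-like cells its whole-library log2 ratio turned to 0.47. In roof plate-like cluster 3, Slc2a3 was lower, at 20.1 CPM in RA+BMP4 and 39.7 CPM in RA (0.928% of all genes were lower there). Slc2a1 was not called over the libraries, with 88.7 CPM in RA+BMP4 and 107 CPM in RA. Its log2 ratio there, -0.27, turned to 0.74 without pluripotent-like cells and to 0.37 with every cell counted equally. It was higher in neuron-like cells, 38.9 CPM in RA+BMP4 and 17.9 CPM in RA, and in 6 of 10 classes.

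Hexokinase traps glucose in the cell by phosphorylation. Hk1, the main form of brain, had 58.9 CPM in RA+BMP4 and 45.5 CPM in RA in neuron-like cells, a ratio of 1.30 (1.22 to 1.38), and was higher in 4 of the 8 classes where it reached 20 CPM. Its largest ratio was in dI1-like cells, with 64.6 CPM in RA+BMP4 and 21.4 CPM in RA. Hk2, a known HIF target, had 22.6 CPM in RA+BMP4 and 8.08 CPM in RA, a ratio of 2.79 (2.44 to 3.20). The Hk1 share of the UMIs of both genes had no single direction. It was 72.3% in RA+BMP4 and 84.9% in RA over neuron-like cells pooled, and 73.7% and 90.3% in dI4/dILA-like cells. It went the other way in dI1-like cells, 72.6% in RA+BMP4 and 57.4% in RA, in roof plate-like cells, 62.1% and 52.8%, and in mesenchyme-like cells, 61.8% and 52.8%. The dI1-like and roof plate-like cells came from different clusters in the 2 libraries. In roof plate-like cluster 0 the Hk1 share was 65.9% in RA+BMP4 and 57.4% in RA, with 68 UMIs behind the RA value. It was 52.7% and 55.7% in cluster 3, and 54.6% and 46.8% in clusters 9 and 15. The intervals of each of these pairs overlap. In pluripotent-like cells it was 23.2% in RA+BMP4 and 23.0% in RA. Gpi1, which isomerises the product, had 249 CPM in RA+BMP4 and 140 CPM in RA in neuron-like cells and was higher in 5 of 10 classes.

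Phosphofructokinase is the main control point of the pathway, and its 3 genes differed. Pfkp, the platelet form, had 37.95 CPM in RA+BMP4 and 20.7 CPM in RA in neuron-like cells and was higher in 6 of the 7 classes where it reached 20 CPM. In dI1-like cells it had 37.8 CPM in RA+BMP4 and 5.55 CPM in RA, with 14 UMIs behind the RA value. Its whole-library ratio was 0.965, with 31.1% of its UMIs in pluripotent-like cells in RA+BMP4 and 68.7% in RA. Pfkl, the liver form, had 105 CPM in RA+BMP4 and 60.8 CPM in RA in neuron-like cells and was higher in 6 of 10 classes. Pfkm, the muscle form, had 27.9 CPM in RA+BMP4 and 24.2 CPM in RA there and was called in 0 of 9 classes. Pfkp counts are uncertain, since the end of its transcript matches Pitrm1 by at least 95%.

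Of the middle steps from triose phosphates to pyruvate, Tpi1, Pgk1, Pgam1 and Eno1 were called higher in at least 6 of 10 classes, while Gapdh was called in 2 and Pkm in 1. Tpi1, which interconverts the triose phosphates, had 423 CPM in RA+BMP4 and 215 CPM in RA in neuron-like cells and was higher in 8 of 10 classes. Pgk1, which makes the first ATP of the pathway, had 446 CPM in RA+BMP4 and 254 CPM in RA and was higher in 8 classes. Pgam1 had 500 CPM in RA+BMP4 and 312 CPM in RA. Both Pgam1 and Eno1, the next enzymes in the chain, were higher in 6 classes. Eno1 had 163 CPM in RA+BMP4 and 102 CPM in RA in neuron-like cells. Aldoc, an aldolase of brain, reached 20 CPM in 3 classes and was called in roof plate-like cells, with 34.4 CPM in RA+BMP4 and 20.7 CPM in RA. Within the clusters of that class its ratio was 1.07 in cluster 0, 0.930 in cluster 3 and 0.797 in clusters 9 and 15, so the call did not hold within any of them. Eno2, the neuronal enolase, reached 20 CPM in none.

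Gapdh, often used as a stable reference gene, had 1707 CPM in RA+BMP4 and 1729 CPM in RA over the libraries and was called higher in 2 classes, the dI5/dILB-like and the dI4/dILA-like one. It had 2969 CPM in RA+BMP4 and 1993 CPM in RA in progenitor-like cells, a ratio of 1.49 (1.46 to 1.52) that was just short of the limit. In dI5/dILB-like cells it had 1461 CPM in RA+BMP4 and 852 CPM in RA, a ratio of 1.71 (1.64 to 1.79). Pkm, pyruvate kinase, had 650 CPM in RA+BMP4 and 518 CPM in RA in neuron-like cells and was higher in 1 class, progenitor-like cells. Counts of Gapdh and Eno1 are uncertain, since their transcript ends match 4 other genes and Eno1b by at least 95%.

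The lactate end of the pathway held the widest contrast. Slc16a3, the exporter of lactate from glycolytic cells, had 79.6 CPM in RA+BMP4 and 37.2 CPM in RA over the libraries. In neuron-like cells it had 89.9 CPM in RA+BMP4 and 17.1 CPM in RA, a ratio of 5.26 (4.83 to 5.73). Roof plate-like cells had 70.7 CPM in RA+BMP4 and 7.69 CPM in RA, a ratio of 9.19 (7.86 to 10.8). Within their clusters the ratio was 5.07 (3.69 to 7.16) in cluster 0, 3.17 (2.33 to 4.33) in cluster 3 and 9.26 (7.01 to 12.5) in clusters 9 and 15. It was higher in 8 of 10 classes, and the exceptions were again pluripotent-like and mesenchyme-like cells. Mesenchyme-like cells had 26.3 CPM in RA+BMP4 and 26.4 CPM in RA. Slc16a1, a lactate and pyruvate carrier, reached 20 CPM in 2 classes and was called in neither. Of the UMIs of both carriers in roof plate-like cells, Slc16a3 made up 84.7% in RA+BMP4 and 29.9% in RA. The contrast was smaller within cluster 0, which held most RA+BMP4 cells of the class, at 92.2% in RA+BMP4 and 66.1% in RA, with 59 UMIs of both carriers behind the RA value. It was 60.1% in RA+BMP4 and 31.0% in RA in cluster 3, and 74.6% and 20.8% in clusters 9 and 15.

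Ldha and Ldhb encode the lactate dehydrogenase subunits associated with lactate formation and with lactate use. Ldha had 511 CPM in RA+BMP4 and 212 CPM in RA in neuron-like cells, a ratio of 2.41 (2.35 to 2.48), and was higher in 8 of 10 classes. Ldhb had 384 CPM in RA+BMP4 and 371 CPM in RA, a ratio of 1.03 (1.01 to 1.06), and was called in 0 of 10. The balance of the subunits therefore differed between conditions. The Ldhb share of their UMIs was 34.5% in RA+BMP4 and 68.5% in RA in dI4/dILA-like cells, 31.7% and 60.8% in dI5/dILB-like cells, and 13.9% and 34.0% in progenitor-like cells. In pluripotent-like cells it was 13.8% in RA+BMP4 and 13.6% in RA. In mesenchyme-like cells the order was the opposite, 38.7% in RA+BMP4 and 29.9% in RA, with Ldha at 296 CPM and 397 CPM.

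Of the hypoxia-induced genes that act on mitochondria, Pdk1 encodes a kinase that keeps pyruvate from entering respiration. Pdk1 had 35.4 CPM in RA+BMP4 and 12.8 CPM in RA in neuron-like cells, a ratio of 2.77 (2.49 to 3.08), and was higher in 8 of 9 classes. Bnip3, a receptor for the removal of mitochondria, had 153 CPM in RA+BMP4 and 70.1 CPM in RA and was higher in 8 of 10 classes. Higd1a, a respiratory chain factor, had 265 CPM in RA+BMP4 and 182 CPM in RA and was higher in 6. Bnip3 counts are uncertain, since its transcript end matches 1 other annotated gene.

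Egln1 and Egln3 encode the oxygen sensors that mark HIF for destruction, and are HIF targets themselves. Egln1 had 170 CPM in RA+BMP4 and 111 CPM in RA in neuron-like cells and was higher in 7 of 10 classes. Egln3 was called in newborn neuron-like cells, with 33.9 CPM in RA+BMP4 and 14.6 CPM in RA, out of 3 classes where it reached 20 CPM.

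P4ha1 and P4ha2 encode collagen prolyl hydroxylase subunits, and Ero1l an oxidase that forms disulfide bonds. In neuron-like cells P4ha1 had 94.0 CPM in RA+BMP4 and 41.0 CPM in RA, a ratio of 2.29 (2.16 to 2.44). P4ha2 had 23.6 CPM in RA+BMP4 and 7.89 CPM in RA, a ratio of 2.99 (2.62 to 3.43). Mesenchyme-like cells, which make collagen, did not share this. There P4ha1 had 150 CPM in RA+BMP4 and 144 CPM in RA, and P4ha2 54.9 CPM and 69.8 CPM. Ero1l had 84.5 CPM in RA+BMP4 and 46.7 CPM in RA in neuron-like cells and was higher in 6 of 10 classes.

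Vegfa, the growth factor of blood vessels, had 69.6 CPM in RA+BMP4 and 39.5 CPM in RA in neuron-like cells and was higher in 7 of 10 classes. Ddit4, an inhibitor of the growth kinase mTOR, had 81.5 CPM in RA+BMP4 and 34.1 CPM in RA and was higher in 8. Ankrd37, an ankyrin repeat protein, was higher in both classes where it reached 20 CPM, with 38.1 CPM in RA+BMP4 and 9.19 CPM in RA in dI4/dILA-like cells. Mif had 1104 CPM in RA+BMP4 and 880 CPM in RA in neuron-like cells and was higher in 3 classes, and its counts are uncertain because its transcript end matches 1 other gene. Kdm3a, a histone demethylase, had 77.1 CPM in RA+BMP4 and 67.8 CPM in RA and was higher in 1 class, dI2-like cells. Ndrg1, a stress-responsive gene, had 12.7 CPM in RA+BMP4 and 23.8 CPM in RA in pluripotent-like cells, a ratio of 0.53 (0.42 to 0.67). Adm, a vasodilator peptide, stayed under 20 CPM in each of the 10 classes, and in neuron-like cells had 125 UMIs in RA+BMP4 and 19 in RA.

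Per cell, the conditions differed most at the upper end in several classes. Cells were thinned to 5000 UMIs each, which left out 149 RA+BMP4 and 24 RA neuron-like cells of lower depth. Neuron-like cells then had a median of 19 glycolytic UMIs in RA+BMP4 and 13 in RA, a 10th percentile of 9 and 7, and a 90th of 50 and 30. Unthinned, the medians were 37.8 UMIs per 10000 in RA+BMP4 and 25.9 in RA. In dI2-like cells the 10th percentile was 8 in both libraries, and the 90th was 45 in RA+BMP4 and 22 in RA. In roof plate-like cells the 10th was 13 in both, and the 90th was 63 in RA+BMP4 and 35 in RA. In dI4/dILA-like cells the median itself was far apart, 27 in RA+BMP4 and 12.5 in RA, and 85.7% of RA+BMP4 cells lay above the RA median.

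**Figure D3:**
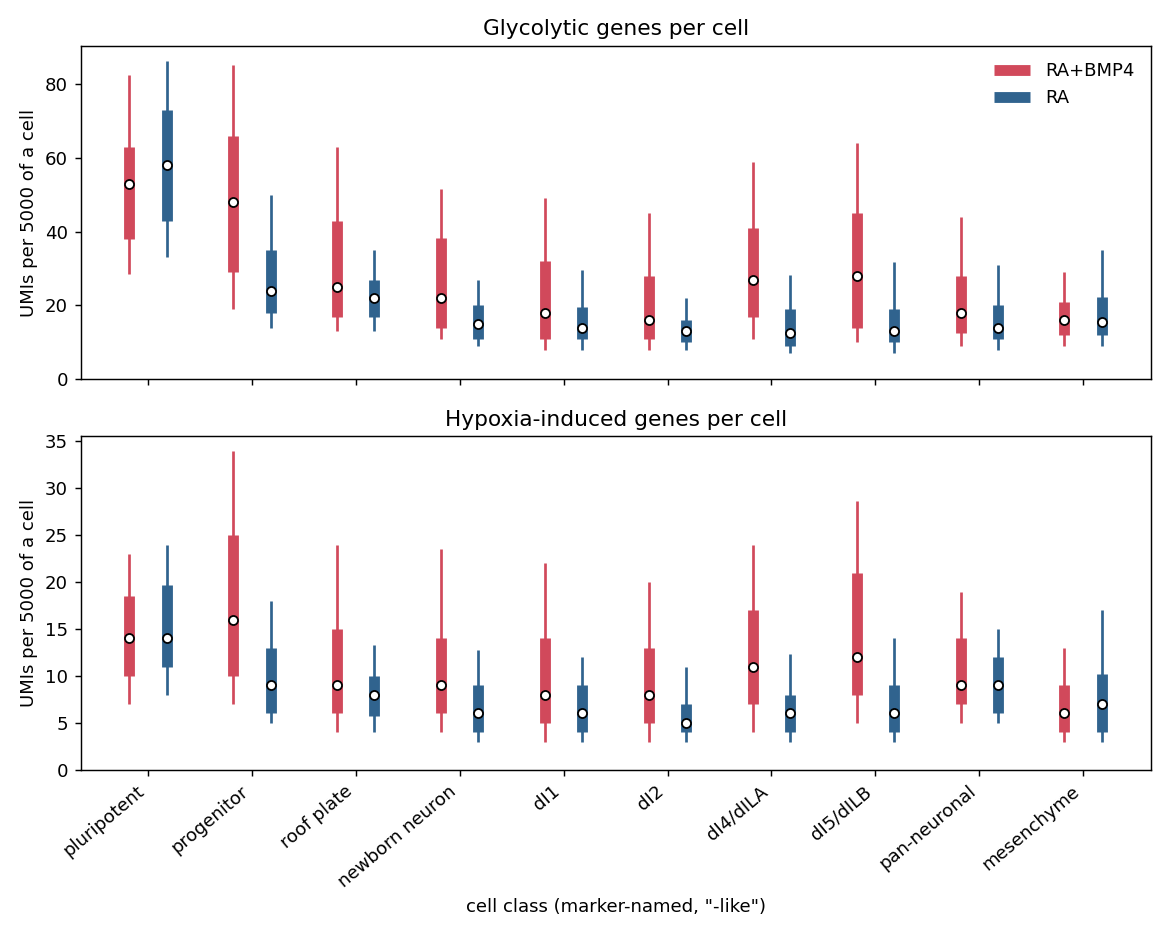
Glycolytic and hypoxia-induced UMIs per cell after thinning to 5000 UMIs, in 10 cell classes, RA+BMP4 left of RA; dots are medians, thick bars span the 25th to 75th and thin lines the 10th to 90th percentile of cells. In roof plate-like cells the glycolytic lines start at 13 in both libraries and end at 63 in RA+BMP4 and 35 in RA.

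Both gene groups varied together from cell to cell. With Mif left out of the hypoxia-induced genes, their thinned UMIs and the glycolytic ones had a Pearson r of 0.77 over 3276 RA+BMP4 and 0.62 over 2855 RA neuron-like cells, the cells of each value sharing 1 library. In roof plate-like cells r was 0.78 in RA+BMP4 and 0.43 in RA, where the class was filled from different clusters. The median hypoxia-induced count was only 4 UMIs in RA+BMP4 and 3 in RA there. Counting error at such counts limits r, and a difference in r between conditions was not tested. Over the 20 clusters with at least 50 cells per library, the log2 condition ratios of both sums had a Pearson r of 0.956 and a Spearman rho of 0.9504, all clusters sharing the same 2 libraries and their totals.

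Cells with many hypoxia-induced UMIs were then set beside cells with few within each library, at or above the 75th and at or below the 25th percentile. These limits were chosen after seeing the data, and they cut a continuous score into ranges, not cell types. They were set in each class and library apart and differed between conditions, so levels of the ranges are not compared between conditions here. In RA+BMP4 neuron-like cells the limits were 7 and 2 UMIs, with 166 of 966 cells at the upper and 469 of 912 at the lower limit. Glycolytic transcripts made up 8586 CPM in the cells with many and 2842 CPM in those with few, a ratio of 3.02 (2.98 to 3.06). In RA neuron-like cells, with limits of 4 and 1 UMIs, they made up 4397 CPM and 2517 CPM, a ratio of 1.75 (1.72 to 1.77).

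In every one of the 10 classes the cells with many hypoxia-induced UMIs had the higher glycolytic level within their own library. In roof plate-like cells of RA+BMP4, with limits of 7 and 2 UMIs, the cells with many had 11020 CPM and those with few 3996 CPM. In roof plate-like cells of RA, with limits of 4 and 1, they had 5243 CPM and 4305 CPM. In mesenchyme-like cells of RA+BMP4, with limits of 4 and 2, they had 4667 CPM and 3243 CPM, and in those of RA, with limits of 5 and 2, 6050 CPM and 3006 CPM.

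**Figure D4:**
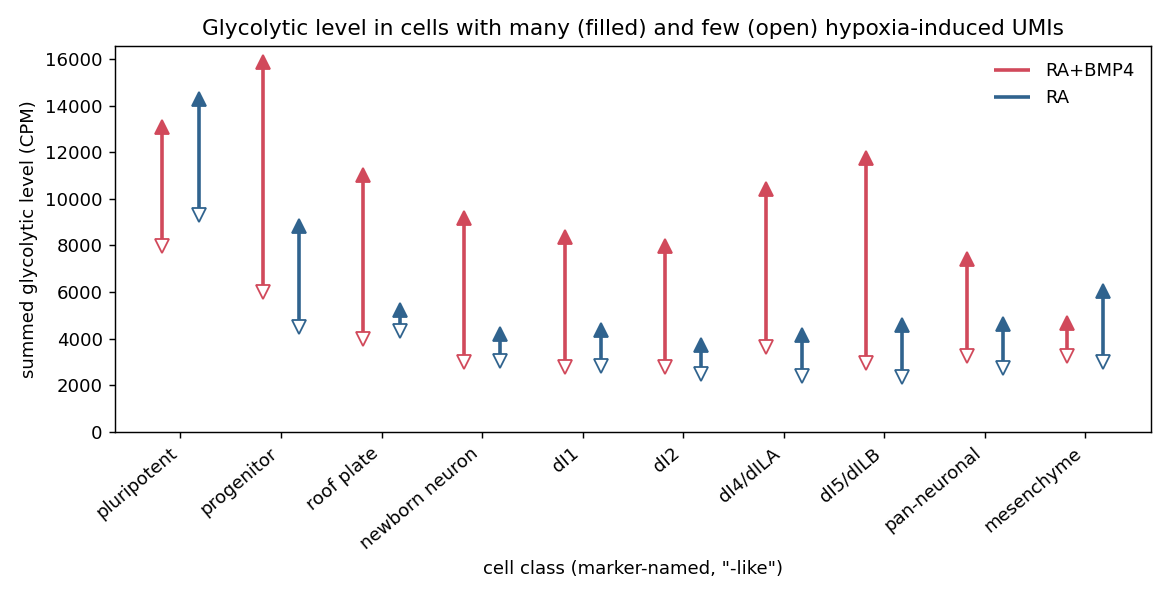
Summed glycolytic level in CPM of cells with many (filled triangles) and few (open triangles) hypoxia-induced UMIs within each class and library, RA+BMP4 left of RA. The limits of many and few differ between libraries. In roof plate-like cells the filled triangles stand at 11020 CPM in RA+BMP4 and 5243 CPM in RA and the open ones at 3996 CPM and 4305 CPM.

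With 1 limit for both libraries, also chosen after seeing the data, 29.5% (27.9 to 31.1) of RA+BMP4 and 9.74% (8.67 to 10.9) of RA neuron-like cells had 7 or more hypoxia-induced UMIs per 5000. These cells had 8586 CPM of glycolytic transcripts in RA+BMP4 and 7043 CPM in RA, and cells with 2 or fewer had 2842 CPM and 2580 CPM. The range of 7 or more has no upper end, and scores inside either range were not matched between libraries. In dI5/dILB-like cells of RA+BMP4, 46 of the 78 cells with 7 or more had 12 or more. The glycolytic levels given here are therefore not levels at equal scores, and a difference at equal scores was not tested. In dI5/dILB-like cells the level at 7 or more was 9954 CPM in RA+BMP4 and 7106 CPM in RA, and at 2 or fewer 2709 CPM and 2461 CPM. In dI4/dILA-like cells it was 9164 CPM in RA+BMP4 and 6617 CPM in RA at 7 or more, and 3405 CPM and 2372 CPM at 2 or fewer. Roof plate-like cells had 11020 CPM in RA+BMP4 and 7532 CPM in RA, the RA value from 50 cells, and 3996 CPM and 4394 CPM. Mesenchyme-like cells had 7271 CPM in RA+BMP4 and 7922 CPM in RA, and 3243 CPM and 3006 CPM. The share of cells with 7 or more was 46.4% in RA+BMP4 and 11.8% in RA for progenitor-like cells, and 27.5% and 5.06% for roof plate-like cells. It was 34.7% (27.5 to 42.5) in RA+BMP4 and 32.4% (27.3 to 37.8) in RA for pluripotent-like cells, whose intervals overlap.

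The glycolytic genes were not equally tied to the hypoxia-induced ones within a library. In neuron-like cells of RA+BMP4, Slc16a3 had 222 CPM with many and 18.1 CPM with few hypoxia-induced UMIs. In RA it had 39.7 CPM with many and 5.02 CPM with few, a ratio of 7.91 (5.91 to 10.8). Ldha had ratios of 7.61 (7.198 to 8.05) in RA+BMP4 and 5.16 (4.79 to 5.57) in RA, and Hk2 of 8.11 (6.23 to 10.7) and 3.06 (2.23 to 4.29). Ldhb, Pfkm, Slc16a1 and Eno2 lay between 0.823 and 1.35 in both libraries. Ldhb had ratios of 0.918 in RA+BMP4 and 0.948 in RA, and Pfkm of 0.989 and 0.823. Hif1a, which encodes a HIF alpha subunit and is no member, had 1.04 (0.957 to 1.13) in RA+BMP4 and 1.03 (0.959 to 1.11) in RA.

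**Figure D5:**
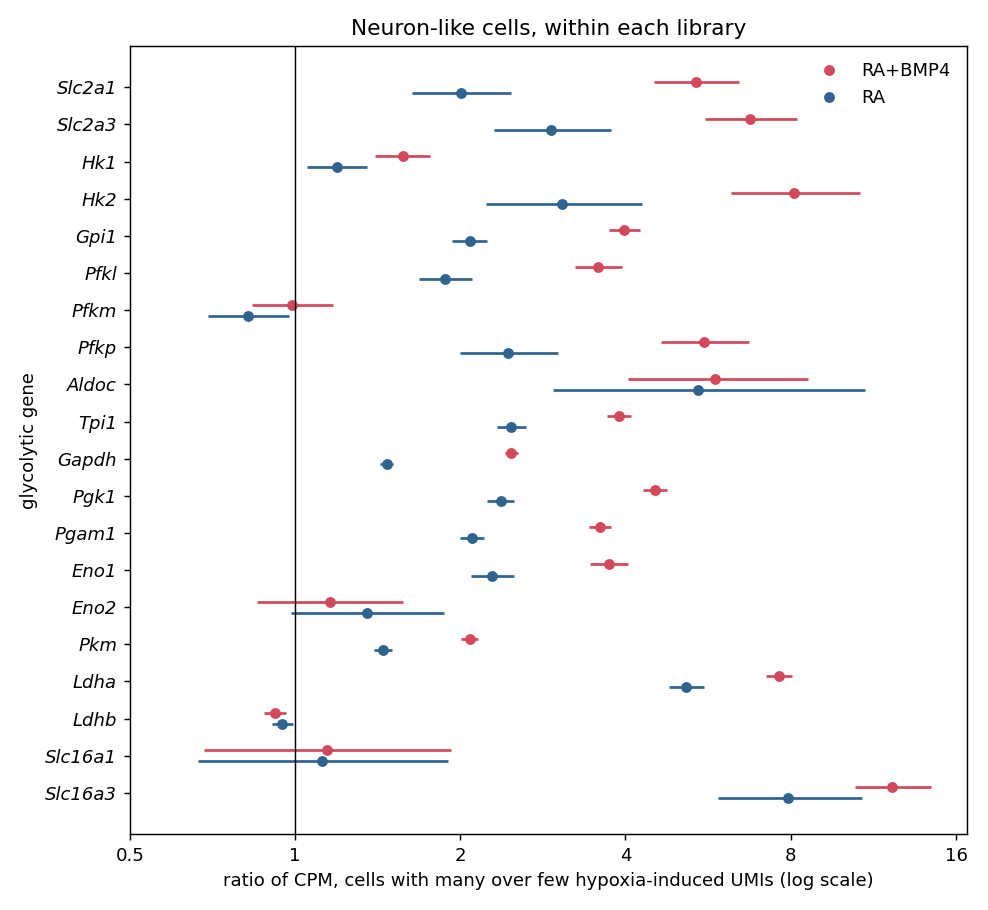
Ratio of CPM in neuron-like cells with many over those with few hypoxia-induced UMIs, for each glycolytic gene in each library, on a log axis with exact 95% counting intervals. Slc16a3, Hk2 and Ldha have ratios of 7.61 or more in RA+BMP4, and Ldhb and Pfkm lie under 1 in both libraries.

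Other genes of the pathway were read from companion lists, which were also chosen with earlier results of these data known. Of 29 further hypoxia-induced genes, 12 reached 20 CPM in neuron-like cells and 5 were higher in RA+BMP4 (Fam162a, Plod2, Pfkfb3, Loxl2 and Pgm2), with a median log2 ratio of 0.31, beside 3.92% of all genes. Fam162a had 255 CPM in RA+BMP4 and 114 CPM in RA. In progenitor-like cells 9 of 14 were higher, beside 3.6% of all genes, and in pluripotent-like cells 1 of 12, Ak4, beside 1.5%. None of the 5 HIF regulators that reached 20 CPM in neuron-like cells was called, and Hif1a had 129 CPM in RA+BMP4 and 132 CPM in RA. Of 8 neighbouring enzymes, Pdha1, a subunit of pyruvate dehydrogenase, was lower, with 65.6 CPM in RA+BMP4 and 100.01 CPM in RA, where 1.32% of all genes were lower.

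Several library measures moved with these results, and their part in them was not tested. Mitochondrial transcripts made up 4.32% of neuron-like UMIs in RA+BMP4 and 6.44% in RA. The neuron-like glycolytic ratio was also taken within ranges of mitochondrial share chosen after seeing the data. It was 1.37 (1.33 to 1.40) up to 4% and 1.29 (1.28 to 1.31) between 4 and 6%. Between 6 and 10% it was 1.27 (1.24 to 1.29), beside 1.51 over all. These pooled ratios also carry the mix of classes, and single classes differed. In progenitor-like cells the ratio was 1.39 up to 4% and 1.35 between 4 and 6%, beside 1.77 over all. In dI4/dILA-like cells it was 1.78 and 1.89, beside 1.99. In dI5/dILB-like cells it was 1.78 and 1.49, beside 1.92. The 10 pluripotency markers summed to 20.3 CPM in RA+BMP4 and 45.9 CPM in RA in neuron-like cells, with 0 of 10 at 0 in either library. They summed to 17.4 to 22.0 CPM in RA+BMP4 and 30.2 to 77.6 CPM in RA over the 9 other classes. Of 8 dissociation and heat stress genes tested in neuron-like cells, Fos had 30.4 CPM in RA+BMP4 and 17.9 CPM in RA, and Egr1 110 CPM and 64.6 CPM, and these 2 were higher, beside 3.92% of all genes. The median log2 ratio of the 8 was 0.40, beside 0.06 over all genes.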

How the data were processed

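Both libraries were read as deposited. Per the labels' protocols, cells were captured with 10x Genomics Chromium 3' version 3 chemistry, and the build was GRCm38, with Cell Ranger 3.0.2 among the tools, per the submitters' processing notes. The deposited values are raw UMI counts per gene and barcode, 115268932 in RA+BMP4 and 122110565 in RA. How barcodes were called as cells is not given in the sources used here.

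Cells with under 1000 genes or over 10% mitochondrial UMIs were left out, and Scrublet (scanpy 1.11.5, expected rate 0.08) removed 298 RA+BMP4 (3.45%) and 138 RA (2.29%) cells as doublets. Clustering used 3000 variable genes, 30 principal components, 20 neighbours and Leiden (leidenalg 0.10.2) at resolution 1, without 450 genes that include the members, markers and companion lists, and gave 24 clusters. UMIs were summed per library and class and scaled to CPM. Ratios carry exact conditional binomial intervals and shares Clopper-Pearson intervals (scipy 1.17.1), and sums under 3 UMIs were set to 3. The size rule was tested on simulated data. Transcript ends were compared over their last 300 bases (at least 95% identity over 200). Strands were not told apart, so a matching gene can lie on the other strand, and the effect on the counts was not tested. Alternatives used edgeR 4.0.16 and DESeq2 1.42.0 scaling factors only. All 35 members are named, and of the lists those past the size rule. The members and lists were chosen with earlier results of these data known.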

Additional observations from a re-analysis of the deposited data

Results flagged for a closer look

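In pluripotent-like cells the glycolytic sum had a ratio, RA+BMP4 over RA, of 0.938 and the hypoxia-induced sum one of 0.969, and both intervals lay below 1, while the neuron-like ratios were 1.51 and 1.46. In mesenchyme-like cells the ratio of the hypoxia-induced sum was 0.930, also with an interval below 1. The genes as a set were level there, with a median log2 ratio of 0.04, beside 0.04 over all genes, and 8 of 15 ratios above 1. With 1 library per condition, the difference between these classes was not tested.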

How the results depend on the processing

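No paired analysis was possible because each condition had 1 library, and for the same reason no replicate could be left out. A stricter cell filter (2000 genes, 5% mitochondrial UMIs) gave whole-library median log2 ratios of 0.12 (glycolytic) and 0.46 (hypoxia-induced), 4 members higher and 2 lower, and a glycolytic median above 0 in 5 of the 7 classes left, against 9 of 10; the exceptions were pluripotent-like and mesenchyme-like cells. TMM factors gave a glycolytic median of 0.15, and DESeq2 size factors 0.13, with 0.49 for hypoxia-induced genes. Counting every cell equally gave 0.42 and 0.71, 12 members higher and 0 lower. Without pluripotent-like cells the glycolytic median was 0.52, with 13 members higher, 0 lower, and Slc2a3 reversed to 0.47. A 2-fold limit left 1 higher and 0 lower, all barcodes gave 0 lower, and a minimum of 5 CPM or none gave 2 lower.

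The pluripotent-like over neuron-like glycolytic ratio was 2.20 in RA+BMP4 and 3.55 in RA at resolution 0.5, 2.12 and 3.18 with the stricter filter, 2.61 and 4.11 with totals lacking mitochondrial and ribosomal genes, 2.15 and 3.60 with cells counted equally, and 1.97 and 3.35 without Gapdh. The hypoxia-induced ratio was 1.24 and 1.88 with the stricter filter, 1.55 and 2.27 with those totals, 1.07 and 1.70 without Mif, and in RA 2.02 with cells counted equally. The fixed-mix ratios were 1.39 and 1.43 with equal class weights, 1.45 and 1.495 at resolution 1.5, and 1.42 and 1.46 at resolution 0.5.

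Of the alternatives chosen after seeing the data, mitochondrial ranges gave neuron-like glycolytic ratios of 1.37, 1.29 and 1.27 and hypoxia-induced ratios of 1.32, 1.26 and 1.21. Depth ranges gave glycolytic ratios of 1.54 up to 8000 UMIs, 1.49 up to 14000 and 1.40 above. Hypoxia-induced ratios were 1.45 up to 8000, 1.47 between 8000 and 14000 and 1.29 above 14000. Except where given, the cause was not tested. Over members and settings, 96 single-gene values stayed within their counting interval and the others moved. The sign changed for 8 members without pluripotent-like cells, for 8 with cells counted equally, for 4 with the stricter filter, for 3 with DESeq2 size factors and for 1 each with TMM factors and all barcodes. Slc2a3 was the 1 among them past the 1.5-fold limit over the whole libraries.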

Other observations

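Companion lists outside the pathway held few calls in neuron-like cells by the 1.5-fold rule, but their medians were not all level. The median log2 ratio was 0.40 for dissociation and heat stress and 0.32 for the p53 response, beside 0.06 over all genes. It was 0.32 for the 2 genes of G2 and M phase. These medians were as large as the 0.31 of the further hypoxia-induced genes. The integrated stress and unfolded protein response had 0.07 and pentose phosphate genes -0.14. None of 5 pentose phosphate genes, 1 gluconeogenesis gene, 9 genes of the integrated stress and unfolded protein response, 2 of G2 and M phase and 1 of S phase was called. Of 8 p53 response genes, Cdkn1a, a cell cycle inhibitor, was higher, with 173 CPM in RA+BMP4 and 92.7 CPM in RA, beside 3.92% of all genes. Over the whole libraries the heat shock gene Hsp90aa1 was lower, with 1470 CPM in RA+BMP4 and 2237 CPM in RA, as was the replication factor Pcna, with 33.1 CPM and 49.7 CPM, beside 1.73% of all genes, and G6pc3, a glucose phosphatase, was higher, with 21.6 CPM and 13.7 CPM, beside 3.13%. The S phase list had a median log2 ratio of -0.41 there. Among cells in 2 unnamed clusters of low depth, the glycolytic ratio, RA+BMP4 over RA, was 1.29 in cluster 20 and 1.42 in cluster 21, and the hypoxia-induced ratio 1.57 and 1.37.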
